A study of Mus musculus with 10 samples.

Results

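The genes described here are the 8 genes of the natriuretic peptide system and its processing: the ligands Nppa, Nppb and Nppc, the receptors Npr1, Npr2 and Npr3, and the proteases Corin and Furin. They were taken by gene symbol from a table of read counts over 23337 genes, and all 8 are rows of it. RNA was sequenced from sorted mouse heart muscle cells on postnatal day 14, with 5 animals in each of 2 groups. Knockout animals carried 2 floxed alleles of Actn2 (Actn2-F/F), the gene of the sarcomere protein alpha-actinin, and heterozygotes carried 1 (Actn2-F/+). Both groups had received the virus AAV9-cTNT-Cre on postnatal day 1. The cTNT promoter directs Cre to cardiomyocytes, so the controls also carry the virus, Cre and a floxed allele, and no group without Cre is compared here. Actn2 itself was measured at 3366, 3454, 3474, 2930 and 2677 CPM (counts scaled to a common library size) in heterozygotes 1 to 5 and at 1286, 1250, 1145, 1182 and 1220 CPM in knockouts 1 to 5. It was lower in every knockout than in every heterozygote, with a log2 fold change of -1.39 ± 0.0910 SE by edgeR (adjusted p = 3.48e-07), and transcript remained in the cells labelled knockout.

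Natriuretic peptides are hormones that the heart makes as precursors and secretes. Atrial natriuretic peptide (Nppa) and B-type natriuretic peptide (Nppb) bind Npr1, a membrane guanylyl cyclase that makes cyclic GMP, while C-type natriuretic peptide (Nppc) binds the related cyclase Npr2, and Npr3 lacks a cyclase and takes the peptides up for clearance. Nppa is made by ventricular cardiomyocytes before birth, recedes to the atria afterwards, and returns in the ventricle with Nppb in stressed or diseased heart muscle.

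The libraries held 8086656 to 25237696 counts. A floor of 3 counts corresponds to 0.119 to 0.371 CPM. The cells carried cardiomyocyte transcripts in abundance, with 8 cardiomyocyte markers summing to 86575 to 110629 CPM in heterozygotes and 82825 to 107945 CPM in knockouts, and 4 ventricular markers to 14845 to 18051 and 12243 to 15250 CPM. Of the 8 cardiomyocyte markers Tnni3 alone was called, lower in knockouts at 4717 ± 315 against 6811 ± 926 CPM (SD, n = 5). Its log2 fold change was -0.53 (edgeR adjusted p = 0.00165). Markers of other cells were also present. The 10 endothelial markers summed to 504 to 803 CPM in heterozygotes and 342 to 569 CPM in knockouts, 2 of them (Egfl7 and Cldn5) passing the test as lower, with a median log2 fold change of -0.46 over the list. The 9 fibroblast markers summed to 331 to 542 and 320 to 651 CPM, and the 6 mural markers to 175 to 297 and 199 to 308 CPM. Among the mural markers Cspg4 was called, 3.57-fold higher in knockouts at 132 ± 21.3 against 37.0 ± 6.39 CPM (SD, n = 5), while the list's median log2 fold change was -0.35. The 6 macrophage markers summed to 11.5 to 29.3 CPM in heterozygotes and 7.02 to 9.47 CPM in knockouts without overlap. Of the 3 tested, Csf1r was called lower, and their median log2 fold change was -0.86. In such bulk samples fewer cells of a type and less RNA per cell cannot be told apart. Heterozygotes 3 and 5 and knockout 5 had Y-linked transcripts at or near 0, and the other 7 animals had 175 to 277 CPM, so sex was mixed in both groups.

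Of the 8 genes, 7 had enough counts to test and 4 passed, all with higher levels in knockouts: Nppa, Nppb, Npr2 and Furin. Over all 11870 tested genes, 18.9% were called, 10.2% as higher and 8.64% as lower. Genes are called where the Benjamini-Hochberg adjusted p of the edgeR quasi-likelihood test is below 0.05, and log2 fold changes are knockout over heterozygote throughout. No decrease among the 7 tested genes passed in edgeR or DESeq2, although 2 genes, Npr1 and Corin, were lower at an unadjusted p below 0.05 in both tools, and limma-voom called Corin lower. The median log2 fold change of the 7 tested genes was 0.53, beside 0.0023 over all tested genes. For 3 genes (Nppa, Npr2 and Furin) the knockouts did not overlap the heterozygotes, as was so for 14.7% of all tested genes.

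**Figure D1:**
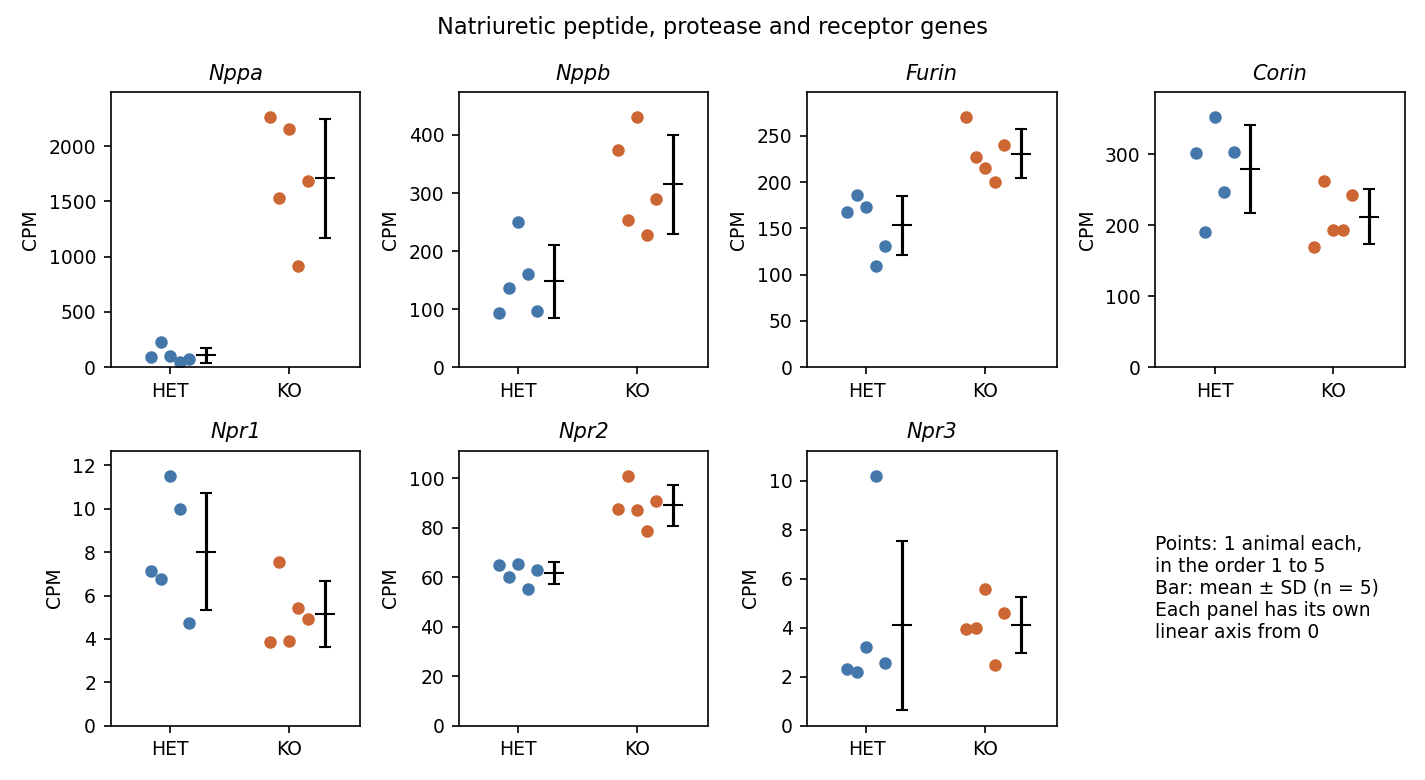
Level of each of the 7 tested genes in CPM (linear axes from 0, 1 scale per gene) in the 5 heterozygotes (HET) and 5 knockouts (KO), 1 point per animal, with the group mean ± SD. The groups are apart for Nppa, Npr2 and Furin and overlap for Nppb, Npr1, Npr3 and Corin.

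Nppa and Nppb lie next to each other on chromosome 4, in the same orientation. In the deposited annotation (mm10), Nppa spans chr4:148000746-148002067 on the forward strand with 3 exon blocks and 829 exon bases. Nppb spans chr4:147985789-147987205 on the forward strand with 3 exon blocks and 780 exon bases, and ends 13541 bases before Nppa starts. The 250 bases before each RefSeq gene start (GRCm38.p6, forward strand, 5′ to 3′) are shown because the pair of neighbouring genes differed so much in its response. Capitals mark matches to the motifs searched.
Nppa, chr4:148000472-148000721: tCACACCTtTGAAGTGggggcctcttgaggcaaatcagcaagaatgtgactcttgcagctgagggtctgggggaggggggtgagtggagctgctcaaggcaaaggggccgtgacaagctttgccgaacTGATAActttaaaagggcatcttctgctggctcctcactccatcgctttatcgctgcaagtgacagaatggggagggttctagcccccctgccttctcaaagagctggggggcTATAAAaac
Nppb, chr4:147985650-147985899: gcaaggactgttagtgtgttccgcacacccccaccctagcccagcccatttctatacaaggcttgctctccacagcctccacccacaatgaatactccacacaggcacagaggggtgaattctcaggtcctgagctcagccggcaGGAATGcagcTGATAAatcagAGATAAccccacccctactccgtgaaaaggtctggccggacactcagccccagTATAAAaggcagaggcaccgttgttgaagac
The Nppa window held, on the gene's strand, the GATA factor site TGATAA (122 to 117 bases before the start), the NKX2-5 site TGAAGTG (241 to 235 bases before) and TATAAA (9 to 4 bases before). On the other strand it held the T-box site AGGTGTG, 249 to 243 bases before the start. The Nppb window held 2 GATA factor sites on the gene's strand, TGATAA (95 to 90 bases before) and AGATAA (84 to 79 bases before), as well as TATAAA (31 to 26 bases before). It also held CATTCC, the MCAT element, on the other strand 105 to 100 bases before the start. So the windows share GATA factor sites and a TATA box, the MCAT letters are found in that of Nppb and the NKX2-5 and T-box letters in that of Nppa.

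Both strands were searched. A GATA factor site was AGATAA or, with another last base, the letters AGATAG, and likewise TGATAA or, with another last base, the letters TGATAG. The MCAT element was read as CATTCC, the NKX2-5 site as the letters TNAAGTG, and the T-box site as the letters AGGTGTG. The AP-1 site was read as TGANTCA, the cyclic AMP response element (CRE) as the letters TGACGTC, and the TATA box as the letters TATAAA. The CArG box was searched by its usual consensus. Only exact matches were counted, so a variant of any of these motifs would be missed. No pair of the matches printed overlaps. Over all 32851 RefSeq windows of the same length, 26.5% held a GATA site, 12.6% an MCAT element, 10.1% an NKX2-5 site, 5.10% a T-box site and 12.4% TATAAA. The shares were 6.75% for AP-1, 2.78% for CRE and 1.47% for the CArG box, none of which was in either window. The windows of Npr1, Npr2, Npr3 and Corin held none of these letters, and that of Nppc held TATAAA. Furin had 2 windows, and only the window nearest its counted start was searched, which held TATAAA and the NKX2-5 site TCAAGTG. These are matches of letters, and binding was not measured. The RefSeq start of Nppa lies 24 bases before the start in the counted annotation and that of Nppb 111 bases after it, so part of the Nppb window is counted as exon.

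Nppa, the gene of atrial natriuretic peptide, had the largest change of the 7 tested genes. It was measured at 88.3, 224, 97.4, 50.5 and 76.7 CPM in heterozygotes 1 to 5 and at 2262, 1531, 2153, 919 and 1680 CPM in knockouts 1 to 5. The lowest knockout (knockout 4) was several times above the highest heterozygote (heterozygote 2). The means were 107 ± 67.7 CPM (SD, n = 5) and 1709 ± 539 CPM (SD, n = 5), a 15.9-fold rise (log2 fold change 3.99 ± 0.369 SE by edgeR, adjusted p = 7.11e-06). By size of the log2 increase, Nppa ranked 17 among the tested genes. The call held in each of the 21 alternatives, with log2 fold changes of 3.81 to 4.45 when 1 animal was left out and 3.36 to 4.22 otherwise.

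Nppa is also a marker of atrial cells, and atrial transcripts varied strongly between animals of both groups. The 7 atrial markers summed to 29.6 to 120 CPM in heterozygotes and 27.7 to 410 CPM in knockouts. The sum of 410 CPM was that of knockout 5, and the other knockouts lay at 27.7 to 100 CPM. The median log2 fold change of the 6 markers that were tested was 1.37. The 4 markers above zero did not pass: Sln at 2.65 (edgeR adjusted p = 0.112), Myl7 at 1.76 (0.278), Myl4 at 1.45 (0.107) and Dkk3 at 1.29 (0.270). Of the other 2, Nr2f2 passed as lower, at -0.85 (edgeR adjusted p = 0.0158), and Stard10, at -0.80, did not pass (edgeR adjusted p = 0.193). The 8 markers of the conduction system and trabeculae, where Nppa is also made, summed to 312 to 629 CPM in heterozygotes and 373 to 519 CPM in knockouts. Kcne1 made up most of these sums, with means of 303 and 309 CPM. None of the 7 tested was called, and their median log2 fold change was 0.03, with Gja5 at -0.71 (edgeR adjusted p = 0.148). Myl7, the atrial myosin light chain, was at 22.4, 36.1, 5.90, 3.996 and 0.197 CPM in heterozygotes 1 to 5 and at 44.4, 2.90, 2.15, 6.47 and 177 CPM in knockouts 1 to 5. Bmp10, a growth factor of atrial cardiomyocytes, reached 13.01 CPM in knockout 5 and at most 0.256 CPM elsewhere. Knockouts 2 and 3, with Myl7 at 2.90 and 2.15 CPM, had Nppa at 1531 and 2153 CPM, while heterozygote 2, with Myl7 at 36.1 CPM, had Nppa at 224 CPM, the highest of its group. With the atrial marker level as a covariate, an alternative chosen after seeing the data, Nppa, Nppb, Npr2 and Furin were again the 4 genes called. That level averages markers whose fold changes differ in sign. The part of atrial cells in the Nppa level was not tested.

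**Figure D2:**
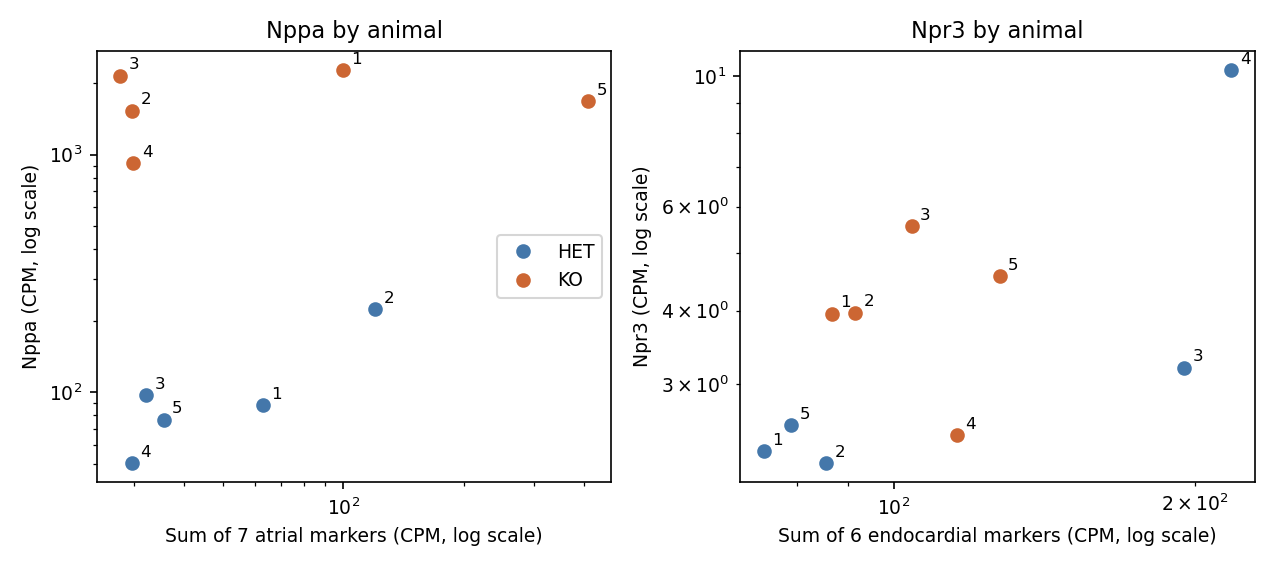
Left, Nppa against the summed atrial markers, and right, Npr3 against the summed endocardial markers, both in CPM on log axes, 1 point per animal with its number. Knockouts lie above heterozygotes in Nppa at low and at high atrial sums. Heterozygote 4 has the highest Npr3 and the highest endocardial sum, which is mostly Tmem100.

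Nppb, the gene of B-type natriuretic peptide, rose much less. Its levels were 93.7, 137, 249, 161 and 97.5 CPM in heterozygotes 1 to 5 and 375, 253, 431, 228 and 289 CPM in knockouts 1 to 5. The groups overlapped, since knockout 4 was below heterozygote 3, and the other 4 knockouts were above every heterozygote. The means were 148 ± 63.4 CPM (SD, n = 5) and 315 ± 85.2 CPM (SD, n = 5), a 2.14-fold difference (log2 fold change 1.10 ± 0.251 SE by edgeR, adjusted p = 0.00717). With the endothelial marker level as a covariate its log2 fold change was 1.32 and the call was lost (edgeR adjusted p = 0.0555), in a fit that called 7.75% of all tested genes.

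The unequal rises turned the balance of these peptide genes. Per kilobase of exon, Nppa went from 130 ± 81.7 to 2061 ± 650 CPM (SD, n = 5) and Nppb from 189 ± 81.2 to 404 ± 109 CPM (SD, n = 5). Nppa made up 47.0%, 60.7%, 26.9%, 22.8% and 42.6% of the length-corrected sum of both in heterozygotes 1 to 5. In knockouts 1 to 5 the share was 85.0%, 85.0%, 82.5%, 79.1% and 84.5%. Nppb was thus the more abundant in 4 of 5 heterozygotes and Nppa in all 5 knockouts, and the shares of the groups did not overlap. The heterozygotes were spread widely and the knockouts narrowly, at 40.0 ± 15.4% and 83.2 ± 2.53% (SD, n = 5). The difference was 43.2 percentage points (two-sided exact permutation test over 252 arrangements, p = 0.00794, the smallest it allows, and 0.0159 adjusted over 2 shares). Counting error was small beside this spread: the 95% Wilson interval of the lowest share, in heterozygote 4, was 21.0% to 24.7%, and intervals cover counting error only.

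**Figure D3:**
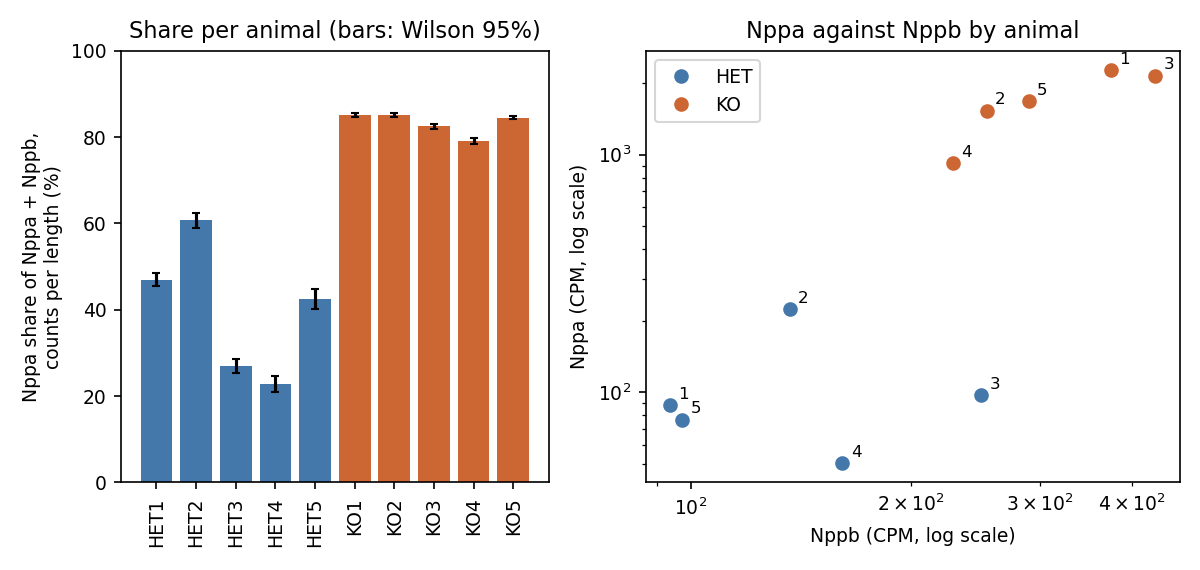
Left, the share of Nppa in the length-corrected sum of Nppa and Nppb (percent) by animal, with 95% Wilson intervals, and right, Nppa against Nppb in CPM on log axes, 1 point per animal with its number. All 5 knockouts lie at 79.1% or above and the heterozygotes between 22.8% and 60.7%.

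Nppc, the gene of C-type natriuretic peptide (chr1:86666293-86670573, reverse strand, 3 exon blocks), had 1 count in heterozygote 2, 3 counts in knockout 2 and 0 counts in the other 8 libraries. No library was above the floor of 3 counts, and the gene was not tested. A level up to that floor was not detectable at this depth.

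The receptors differed from one another. Npr2, the cyclase for C-type natriuretic peptide (chr4:43631935-43651240, forward strand, 22 exon blocks), rose modestly and evenly. It was measured at 65.1, 60.3, 65.5, 55.1 and 62.8 CPM in heterozygotes 1 to 5 and at 87.6, 101, 87.0, 78.6 and 90.9 CPM in knockouts 1 to 5. Every knockout was above every heterozygote. The means were 61.7 ± 4.27 and 89.0 ± 8.13 CPM (SD, n = 5), a 1.44-fold rise (log2 fold change 0.53 ± 0.0909 SE by edgeR, adjusted p = 0.00109). The call was lost with the endothelial covariate, at a log2 fold change of 0.44 and an edgeR adjusted p = 0.0516.

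Npr1, the cyclase for the peptides of Nppa and Nppb (chr3:90450592-90465866, reverse strand, 22 exon blocks), was scarce. It was measured at 7.14, 6.75, 11.5, 9.99 and 4.72 CPM in heterozygotes 1 to 5 and at 3.85, 7.56, 3.90, 5.44 and 4.92 CPM in knockouts 1 to 5. Heterozygotes 3 and 4 were highest and the groups overlapped. The means were 8.03 ± 2.71 and 5.14 ± 1.52 CPM (SD, n = 5), and the difference did not pass (log2 fold change -0.63, 95% interval -1.13 to -0.12, edgeR adjusted p = 0.106). It passed without heterozygote 5 (log2 fold change -0.76, edgeR adjusted p = 0.0462) and without knockout 2 (-0.81, edgeR adjusted p = 0.0496). With the endothelial markers as a covariate the log2 fold change was -0.13. Those markers are lower in knockouts, so the covariate overlaps with genotype and cannot be told apart from it. Endothelial cells also make Npr1, and their part in its level was not tested.

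Npr3, the clearance receptor (chr15:11839897-11905674, reverse strand, 8 exon blocks), rested on 18 to 92 counts per library. It was measured at 2.31, 2.21, 3.20, 10.2 and 2.56 CPM in heterozygotes 1 to 5 and at 3.96, 3.97, 5.56, 2.46 and 4.58 CPM in knockouts 1 to 5. Heterozygote 4 stood far above every other animal, and 4 of 5 knockouts were above the other 4 heterozygotes. The means were 4.10 ± 3.44 and 4.11 ± 1.13 CPM (SD, n = 5) with a log2 fold change of 0.03 (95% interval -0.76 to 0.82, edgeR adjusted p = 0.968). Without heterozygote 4 the log2 fold change was 0.69, and with the endothelial covariate it was 0.86 (edgeR adjusted p = 0.427). Heterozygote 4 also had the highest sums of the 6 endocardial markers, at 218 CPM beside 74.0 to 195 CPM in the other 9 animals, and of the 4 epicardial markers, at 22.5 CPM beside 6.79 to 12.4 CPM. Its endothelial sum, 803 CPM, was also the highest of the 10 animals, and its mural and fibroblast sums, 297 and 542 CPM, the highest of the heterozygotes. Most of its endocardial sum was Tmem100, at 144 CPM, and heterozygote 3 had Tmem100 at 148 CPM with Npr3 at 3.20 CPM. The part of these markers in the Npr3 level was not tested.

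Per kilobase of exon, Npr2 was the most abundant receptor in all 10 animals. It was at 16.9 ± 1.17 CPM in heterozygotes and 24.4 ± 2.22 CPM in knockouts, Npr1 at 1.97 ± 0.668 and 1.26 ± 0.373 CPM, and Npr3 at 0.592 ± 0.497 and 0.593 ± 0.163 CPM (SD, n = 5). Npr3 made up 3.06 ± 2.63% of the 3 receptors in heterozygotes and 2.26 ± 0.607% in knockouts (SD, n = 5), a difference of -0.81 percentage points (two-sided exact permutation test, p = 0.857, and 0.857 adjusted over 2 shares). Without heterozygote 4, whose share was 7.76%, the difference was 0.37 points (exact p = 0.317).

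Of the processing enzymes, Furin passed the test and Corin did not. Furin, a proprotein convertase of the Golgi that cleaves many precursors, that of B-type natriuretic peptide among them (chr7:80389194-80405431, reverse strand, 17 exon blocks), was measured at 168, 186, 173, 109 and 131 CPM in heterozygotes 1 to 5 and at 270, 227, 216, 200 and 240 CPM in knockouts 1 to 5. The lowest knockout was above the highest heterozygote. The means were 153 ± 32.2 and 231 ± 26.5 CPM (SD, n = 5), a 1.51-fold rise (log2 fold change 0.59 ± 0.140 SE by edgeR, adjusted p = 0.00891). With the endothelial covariate it was 0.39 and no longer called (edgeR adjusted p = 0.256).

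Corin, the membrane serine protease that activates the precursor of atrial natriuretic peptide (chr5:72300025-72504540, reverse strand, 23 exon blocks), was measured at 302, 190, 352, 247 and 304 CPM in heterozygotes 1 to 5 and at 170, 262, 194, 193 and 242 CPM in knockouts 1 to 5. Heterozygotes 1, 3 and 5 were above every knockout, and heterozygote 2 was below 4 of 5. The means were 279 ± 62.0 and 212 ± 38.3 CPM (SD, n = 5), a difference that did not pass (log2 fold change -0.39, 95% interval -0.71 to -0.08, edgeR adjusted p = 0.101). It passed without heterozygote 2 (-0.50, edgeR adjusted p = 0.0221) and with limma-voom using sample weights (-0.53, adjusted p = 0.0122).

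Ordered by level per kilobase, the heterozygotes had Nppb, Nppa, Corin, Furin, Npr2, Npr1, Npr3 and Nppc, from high to low. The knockouts had Nppa, Nppb, Furin, Corin, Npr2, Npr1, Npr3 and Nppc. Corin went from 55.5 ± 12.3 to 42.2 ± 7.61 CPM per kilobase and Furin from 34.8 ± 7.31 to 52.4 ± 6.03 CPM per kilobase (SD, n = 5). Corin was above Furin in 4 of 5 heterozygotes and Furin above Corin in 4 of 5 knockouts. In heterozygotes the ranges of neighbours in this order overlapped between Nppb and Nppa, Nppa and Corin, Corin and Furin, and Npr1 and Npr3. In knockouts they overlapped between Furin and Corin alone.

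Reads were counted without strand, and newer gene annotation (GENCODE) places unlisted antisense or divergent RNAs over exons of 6 of the 8 genes. The overlap was 532 of 865 exon bases for Nppa (Gm13054), and 118 to 559 exon bases for Npr1, Npr2, Npr3, Corin and Furin. Reads of a gene and of such a partner cannot be told apart.

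Among 27 other genes of cyclic GMP signalling and of peptide processing and breakdown, 24 were tested and 7 were called, 5 higher and 2 lower (29.2%, beside 18.9% of all tested genes). The list's median log2 fold change was -0.07. Prkg1, the cyclic GMP-dependent kinase that carries much of the signal from these receptors, had the largest rise, from 21.0, 11.7, 19.6, 21.5 and 14.4 CPM in heterozygotes 1 to 5 to 61.8, 73.2, 61.8, 44.4 and 59.4 CPM in knockouts 1 to 5. The groups were well apart, at 17.6 ± 4.38 and 60.1 ± 10.3 CPM (SD, n = 5), 3.39-fold (log2 fold change 1.76 ± 0.172 SE by edgeR, adjusted p = 1.08e-05). Pam, which amidates peptides and is a main membrane protein of atrial secretory granules, rose from 108, 113, 115, 114 and 103 CPM to 227, 178, 255, 202 and 240 CPM. That is 111 ± 5.15 against 220 ± 30.3 CPM (SD, n = 5), 1.99-fold (log2 fold change 1.00 ± 0.103 SE by edgeR, adjusted p = 1.78e-05). Both kept their call in all alternatives.

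Gucy1b3, the beta subunit of the soluble, nitric oxide-sensing guanylyl cyclase, rose from 9.13 ± 1.93 to 17.4 ± 3.60 CPM (SD, n = 5), which gave a log2 fold change of 0.92 ± 0.177 SE in edgeR (adjusted p = 0.00235). The lowest knockout, at 13.2 CPM, was above the highest heterozygote, at 12.1 CPM. Its partner Gucy1a3, chosen after its values were seen, had a log2 fold change of -0.41 and did not pass (edgeR adjusted p = 0.113). Gucy1a2, another alpha subunit, chosen likewise, was scarce and had a log2 fold change of 0.09 (edgeR adjusted p = 0.916).

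Of the phosphodiesterases, which break cyclic nucleotides down, Pde1c fell from 99.9 ± 7.56 to 60.3 ± 11.7 CPM (SD, n = 5), which gave a log2 fold change of -0.73 ± 0.128 SE in edgeR (adjusted p = 0.00128). Its heterozygotes lay at 91.5 to 107 CPM and its knockouts at 42.2 to 71.4 CPM. Pde3a, which cyclic GMP inhibits, was higher at 76.1 ± 6.86 against 58.8 ± 10.7 CPM (SD, n = 5), with edgeR's log2 fold change at 0.37 (adjusted p = 0.0489), a call that 15 of the 21 alternatives lost. Abcc5, an exporter of cyclic nucleotides, rose from 33.9 ± 3.79 to 47.1 ± 9.75 CPM (log2 fold change 0.48, edgeR adjusted p = 0.0216). Its call was lost without heterozygote 1 (edgeR adjusted p = 0.0519) and with the endothelial covariate (edgeR adjusted p = 0.367). Ece1, an endothelin-converting protease, was lower at 34.2 ± 6.57 against 47.6 ± 6.65 CPM (log2 fold change -0.47, edgeR adjusted p = 0.0259), and 9 of the 21 alternatives lost that call, 7 of them leaving out 1 animal.

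The 3 most abundant genes of this list per length that were not called were Pln, the phospholamban that restrains the calcium pump, Rgs2, a brake on G protein signalling and a target of Prkg1, and Ide, a protease that degrades small peptides. Their log2 fold changes were -0.09 for Pln (edgeR adjusted p = 0.708), -0.54 for Rgs2 (edgeR adjusted p = 0.209) and -0.05 for Ide (edgeR adjusted p = 0.853). Rgs2 passed without knockout 4 (-0.83, edgeR adjusted p = 0.0354). Prkg2, Pde5a and Ostn, the gene of a peptide that occupies Npr3, had too few counts to test.

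**Figure D4:**
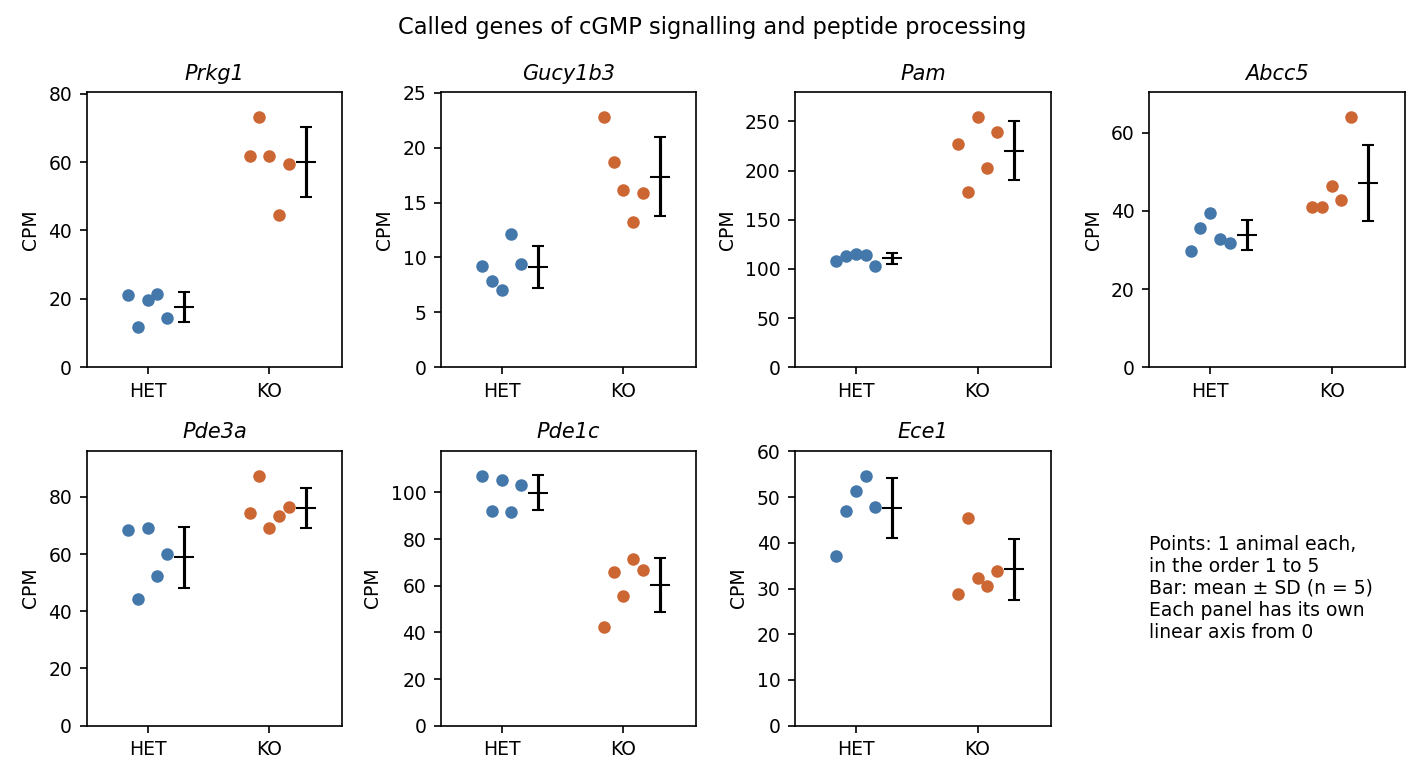
Levels in CPM (linear axes from 0), 1 point per animal with the group mean ± SD, of the 7 called genes of the cyclic GMP and peptide processing list. Heterozygotes and knockouts are apart for Prkg1, Pam, Gucy1b3, Abcc5 and Pde1c, with Pde1c the lower in knockouts, and overlap for Pde3a and Ece1.

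The transcription factors known to act on Nppa or Nppb were not set apart from all tested genes by their share of calls. Of 27 listed, 25 were tested and 3 were called, 2 higher and 1 lower (12%, beside 18.9% of all tested genes), with a median log2 fold change of 0.14. DESeq2 called 5. Myocd, the myocardin coactivator of serum response factor, rose from 142 ± 22.1 to 242 ± 75.2 CPM (SD, n = 5), which gave a log2 fold change of 0.77 ± 0.174 SE in edgeR (adjusted p = 0.00644). Irx5, a homeodomain factor of the ventricular wall, rose from 25.0 ± 8.26 to 43.4 ± 5.75 CPM (SD, n = 5), which gave a log2 fold change of 0.80 ± 0.196 SE in edgeR (adjusted p = 0.0113). Tbx2, a T-box repressor of Nppa in the atrioventricular canal, was lower at 4.55 ± 1.01 against 7.12 ± 1.23 CPM (log2 fold change -0.65, edgeR adjusted p = 0.0406), and 12 of the 21 alternatives lost that call. With the endothelial covariate Myocd (0.65, edgeR adjusted p = 0.137) and Irx5 (0.45, edgeR adjusted p = 0.271) were not called either.

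Gata4, a zinc finger activator of both peptide genes, was at 304 ± 38.0 CPM in heterozygotes and 369 ± 16.4 CPM in knockouts (SD, n = 5) and stood at the threshold (log2 fold change 0.28, edgeR adjusted p = 0.0559). It passed in 5 of the 21 alternatives, among them without heterozygote 2 (edgeR adjusted p = 0.0239) and without heterozygote 3 (edgeR adjusted p = 0.0351). Jun, a subunit of AP-1, and Mef2a, a MADS box factor, had log2 fold changes of 0.10 (edgeR adjusted p = 0.862) and 0.25 (edgeR adjusted p = 0.168). Fos, the other AP-1 subunit of the list and chosen after its values were seen, varied widely, at 131 ± 85.6 CPM in heterozygotes and 64.2 ± 32.5 CPM in knockouts (SD, n = 5), and did not pass (log2 fold change -1.04, edgeR adjusted p = 0.147). It passed without heterozygote 4 (-1.32, edgeR adjusted p = 0.0144).

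The neighbours of Nppa and Nppb did not share the rise as a group. Within 200 kb the table lists 16 other genes, of which 13 were tested and 2 called (15.4%, beside 18.9% of all tested genes), with a median log2 fold change of -0.18. Clcn6, an endosomal chloride-proton exchanger that follows Nppa on the opposite strand (chr4:148006484-148038767), rose from 6.26 ± 1.35 to 11.3 ± 1.28 CPM (SD, n = 5), and no knockout overlapped a heterozygote. The rise was 1.79-fold (log2 fold change 0.84 ± 0.172 SE by edgeR, adjusted p = 0.00368), and with the endothelial covariate it was not called (0.67, edgeR adjusted p = 0.0949). Fbxo44, a ubiquitin ligase component, was lower at 12.98 ± 1.56 against 17.7 ± 2.43 CPM (log2 fold change -0.45, edgeR adjusted p = 0.0334), and 11 of the 21 alternatives lost that call. The most abundant neighbours not called were Mfn2, a mitochondrial fusion protein (log2 fold change -0.10, edgeR adjusted p = 0.560), Plod1, a collagen lysyl hydroxylase (-0.20, edgeR adjusted p = 0.125), and 2510039O18Rik (-0.20, edgeR adjusted p = 0.240).

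**Figure D5:**
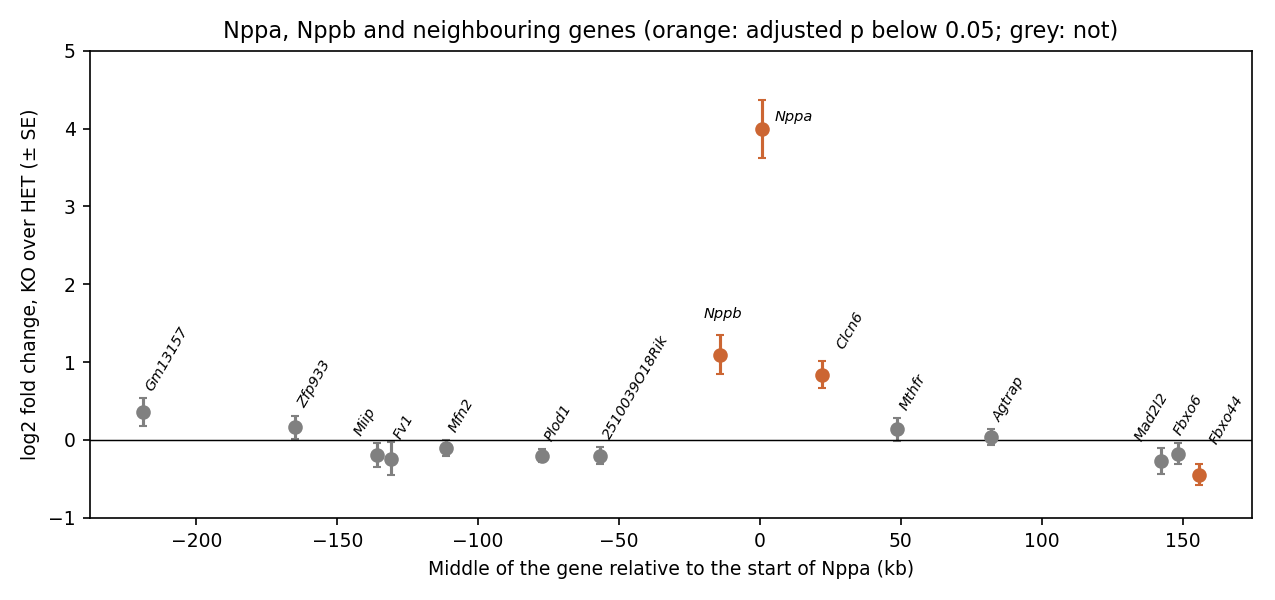
Log2 fold change (knockout over heterozygote, ± SE) of Nppa, Nppb and their tested neighbours against the distance of each gene's middle from the start of Nppa in kilobases. Nppa at 3.99, Nppb at 1.10 and Clcn6 at 0.84 are the called rises, and Fbxo44 at -0.45 the called decrease.

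The genes most like the peptide genes over the 10 animals were found by Pearson's r of log2 CPM among genes averaging 10 CPM or more, given as a description. For Nppa they were Scube2 (r = 0.991), Sulf2 (0.989), Tox3 (0.988), Fam168a (0.986) and Fam105b (0.986), a pattern that the gap between the groups sets in large part. In deviations from the group means they were other genes: Ficd (r = 0.978), Taldo1 (0.971), Nr1d1 (0.965), Tbc1d20 (0.964) and B3gat3 (0.956). For Nppb the first 4 were Utp18, Fam46a, Zbtb20 and Trim47 by both measures, at r = 0.986, 0.979, 0.975 and 0.969 in log2 CPM and 0.974, 0.966, 0.961 and 0.923 in deviations. The fifth was Trio (0.964) in log2 CPM and Golga4 (0.922) in deviations. For Npr3 they were Arid4b (r = 0.883), Fbxo11 (0.865), Atpbd4 (0.855) and Ythdc1 (0.850) in log2 CPM, and Ankra2 (0.968), Diap2 (0.931), Dcn (0.903), Nfib (0.899) and Arid4b (0.897) in deviations, where heterozygote 4 weighs heavily. The points share library and depth, and genes are not independent.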

How the data were processed

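Per the labels' protocols, RNA of sorted cells was made into cDNA with a SMART-Seq kit (10 ng of RNA, 8 PCR cycles) and into Nextera XT libraries. Per the submitters' processing notes the tools were CASAVA 1.8, STAR 2.5.3a and featureCounts of Subread 1.5.2, with build mm10, and per the file headers the authors made the deposited counts with featureCounts 1.5.1. The values are whole reads per gene, unnormalised and without unique molecular identifiers. The header lists no option beyond 4 threads, so by default strand was ignored and reads placed at several sites were left out. Columns were matched to animals by title, and 4 count columns that match no sample were not used. Replicates differed beyond sampling noise, so none was merged. The labels call them biological replicates and give neither sex nor batch.

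Counts were tested with edgeR 4.0.16 in R 4.3.3 (filterByExpr with a minimum count of 10, TMM scaling, glmQLFit and glmQLFTest, Benjamini-Hochberg over 11870 genes, threshold 0.05). CPM are TMM-scaled. SDs are over 5 animals, and 95% intervals of log2 fold changes are the estimate ± 1.96 SE. Shares were compared with exact permutation tests (scipy 1.17.1). DESeq2 1.42.0, limma 3.58.1 (voom), other scalings and filters, a replicate block, Y-linked, endothelial and atrial covariates and leaving out each animal were alternatives. In a single simulated data set with 200 genes changed, edgeR recovered 78.5% of 2-fold and 98.1% of 4-fold changes, with 3.87% false calls. The real data had 2241 genes called, and a share of changed genes that large was not simulated.

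The members, gene lists and motifs were chosen with earlier results of these data known. Genes named are Actn2, the 8 members, every called gene of the 3 lists with the 3 most abundant per length that were not called, the 5 genes most like Nppa, Nppb and Npr3 (1 of those for Npr3 is not reported here), markers whose values stand beside a result, and 3 genes chosen after their values were seen (Gucy1a3, Gucy1a2, Fos). Promoter sequences are from RefSeq (GRCm38.p6), which matched 8 of 8 members.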

Additional observations from a re-analysis of the deposited data

Results flagged for a closer look

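Within a group of 5 animals, 7 of 68 sets of values had 1 animal set apart from the rest, meaning that its gap to the nearest animal exceeded 0.71 of the group's range. Chance gives about 1 in 20, or 3.4 sets. For Npr3, heterozygote 4 had the highest log2 CPM, 3.36, beside 1.72 in the next animal, and its Npr3 share of the receptors was 7.76% beside 2.18%. This animal also had the highest endocardial and epicardial marker sums, at 218 and 22.5 CPM, the former mostly Tmem100 at 144 CPM. Their part in the Npr3 level was not tested. Without heterozygote 4 the log2 fold change of Npr3 was 0.69 in place of 0.03. Abcc5 was highest in knockout 5, at a log2 CPM of 6.003 beside 5.54. Ide was lowest in heterozygote 2, at 6.78 beside 7.51. Mef2a was lowest in heterozygote 2, at 7.11 beside 7.64, and among knockouts in knockout 1, at 7.74 beside 7.88. Plod1 was highest in knockout 2, at 7.48 beside 7.34.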

How the results depend on the processing

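Over 32 named genes and up to 21 alternatives, 583 of 670 fold changes stayed on the same side of zero and of the threshold, 55 lost a call, 13 gained one and 19 changed sign. The endothelial covariate cut the calls most, from 2241 to 920 over all genes, from 4 to 1 member (Nppa), from 7 to 4 genes of the cyclic GMP list, from 3 to 0 regulators and from 2 to 0 neighbours in edgeR, where 5 regulators and 1 neighbour had an unadjusted p below 0.05. Main counts in DESeq2 were 5 regulators and 2 neighbours, and in voom 4 and 2. The endothelial markers are lower in knockouts, so this covariate overlaps with genotype and cannot be told apart from it. The regulators called were 5 with library totals, 5 with DESeq2 and 5 with the replicate block, and the neighbours called 1 with library totals, 1 without a filter and 1 with the replicate block. Same-numbered animals did not all deviate together (correlations from -0.060 to 0.185, over 0.1 in 3 of 5 pairs, with 4 of 10 animals closest to their own number), so pairing by number was not established and stands as a hint in the data. With the replicate block 2182 genes and 4 members were called, Rgs2 passed (-0.64, edgeR adjusted p = 0.0119), and the Nppa share difference of 43.2 points had an exact p = 0.0625, the smallest that pairing allows.

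Leaving out 1 animal gave 1699 to 2258 genes, 4 to 5 members, 5 to 7 genes of the cyclic GMP list, 2 to 4 regulators and 1 to 2 neighbours. The Nppa share difference was 38.9 to 48.4 points and that of Npr3 -1.15 to 0.37 points. The sign changed for Npr3 (-0.15 to 0.69), for Pln in fits without 1 animal (-0.20 to 0.017), for Ide with library totals (0.028), the Y-linked covariate (0.0084) and in fits without 1 animal (-0.18 to 0.020), for Gucy1a2 with voom (-0.0033), the Y-linked covariate (-0.084) and in fits without 1 animal (-0.36 to 0.33), and for Jun with the endothelial covariate (-0.45) and in fits without 1 animal (-0.12 to 0.30). None of these was called, and the cause was not tested. Library totals moved the split of calls to 1684 higher and 760 lower, from 1216 and 1025. Npr3 had no value under the filter of at least 5 CPM, and no fold change is given for Nppc, which lies at or under the floor of 3 counts in both groups. Depth limits Nppc, Npr3 and Npr1 most.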
